A study of Mus musculus with 31 samples.

Results

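The growth hormone and Igf1 axis was followed through 10 genes, Igf1, Ghr, Igfals, Igfbp1, Igfbp2, Igfbp3, Igfbp4, Socs2, Stat5a and Stat5b, in the livers of 31 BXD strains. The members were the array probes that the platform annotation gave a single gene with one of these symbols. Such a probe was found for 9 of the 10 genes, 1 probe for each gene, so that 9 of the 21765 probes with a value on every array are described. Stat5b had none and was not analysed here.

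BXD strains are recombinant inbred mice made from C57BL/6J and DBA/2J, each strain fixed at a locus for the allele of either parent. For each strain, whole-liver RNA of 3 males aged 8 weeks was pooled and put on 1 two-colour glass array beside a pool of whole-liver RNA from 9 C57BL/6J males of the same age. A value is the log2 ratio of the strain over the C57BL/6J pool, the likely reading of the deposited numbers, since no source used here states their log base or direction. Each strain is therefore 1 pool on 1 array, and a difference between strains cannot be told apart from measurement error of single arrays. The arrays give ratios and not levels, so the labelled tissue could not be checked by the presence of hepatocyte transcripts.

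Growth hormone from the pituitary binds its receptor, Ghr, on hepatocytes, and the kinase Jak2 then phosphorylates the transcription factors Stat5a and Stat5b. Stat5 raises transcription of Igf1, of Igfals, the acid-labile subunit that holds Igf1 in a long-lived complex with Igfbp3 in plasma, and of Socs2, an inhibitor that closes the loop. Igfbp1, Igfbp2 and Igfbp4 bind Igf1 outside that large complex. In liver, Igfbp1 is known to be held down by insulin and raised in fasting, through the transcription factor Foxo1.

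Binding motifs of this wiring can be read in promoters of the members. The sequences come from RefSeq (build GRCm38.p6), which had windows for 9 of the 10 genes, 15 in all, and none for Socs2. The 250 bases before each start were searched on both strands for TTCNNNGAA, the form of a Stat5 site, and for the forkhead forms CAAAACA and GTAAACA. No match of 1 motif was removed for overlapping another. TTCNNNGAA occurred in 2 of the 15 windows, both of Igfals, against 7.02% of 32851 windows of the genome, CAAAACA in the window of Igfbp1 alone, against 5.56%, and GTAAACA in 1 window of Igfals, against 3.17%. The windows of Igfbp1 (chr11:7197537-7197786, plus strand) and Igfals (chr17:24877981-24878230, plus strand) are shown because they carry known elements of the insulin and growth hormone responses. Capitals mark CAAAACA, which begins 108 bases before the start of Igfbp1 and belongs to the insulin response element described for this gene, and TTCCTAGAA, which begins 58 bases before the start of Igfals.
Igfbp1: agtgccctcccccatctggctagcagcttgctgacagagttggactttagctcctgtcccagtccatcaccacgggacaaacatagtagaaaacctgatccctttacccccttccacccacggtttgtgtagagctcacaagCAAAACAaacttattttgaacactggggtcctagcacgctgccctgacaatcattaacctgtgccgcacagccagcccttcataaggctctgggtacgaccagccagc
Igfals: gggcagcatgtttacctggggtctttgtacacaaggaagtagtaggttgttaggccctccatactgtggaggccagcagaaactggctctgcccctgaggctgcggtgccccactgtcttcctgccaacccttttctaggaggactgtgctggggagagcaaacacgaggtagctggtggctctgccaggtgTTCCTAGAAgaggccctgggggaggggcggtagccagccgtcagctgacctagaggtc
A match of letters is not a measured binding site, and no binding data were used.

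Properties of the arrays that touch every value below were as follows. The arrays of strains 23, 28, 40 and 42 stood apart, with a median r of 0.06 to 0.37 with the other arrays, where strain 38 had 0.57 and each of the other 26 strains 0.67 or more. The probes of Ghr and Socs2 have identifiers that are multiples of 8, and the mean over strains of such every 8th probes centred on -0.58, that of other probes on 0.04. A place correction, which subtracts on each array the median of all probes at the same place in that cycle, was therefore run beside each result. Over the 902 genes with exactly 2 probes, the paired probes had a median r of 0.01 across strains, and in 39 genes r reached 0.5. A gene name below thus stands for a single probe, which no other probe of these genes checks.

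All 9 measured members passed the test of the panel mean against the C57BL/6J pool, with 6 higher and 3 lower, and after place correction 6 were higher, 2 lower and Socs2 did not pass. The binding proteins and the acid-labile subunit lay on the higher side with Ghr, and Igf1, Socs2 and Stat5a on the lower side. That count is to be read against the 75.0% of all probes that passed the same limma test (Benjamini-Hochberg adjusted p under 0.05), 37.4% being higher and 37.6% lower. The dyes were never exchanged and the reference was 1 pool, so an effect of the dye on a probe or of that pool cannot be told apart from a strain difference. In whole tissue, fewer cells of a type and less RNA per cell also cannot be told apart.

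**Figure D1:**
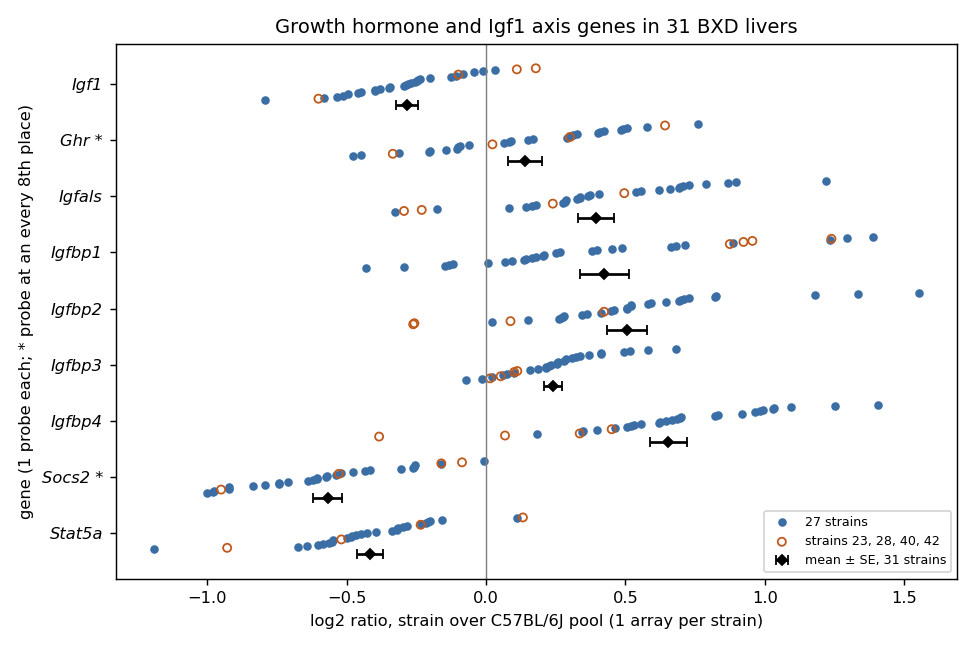
Log2 ratio of strain over C57BL/6J pool (horizontal axis) for each of the 9 measured genes (rows). Each point is 1 strain, open points are strains 23, 28, 40 and 42, diamonds with bars are mean ± SE over 31 strains, and stars mark the probes at an every 8th place; all points of Socs2 lie below 0 and all but 1 of Igfbp4 above it.

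Igf1, the effector hormone that liver supplies to plasma, averaged -0.28 ± 0.04 (SE, n = 31 strains), 1.22-fold below the C57BL/6J pool, with an adjusted p of 9.8e-08 by limma. It ran from -0.79 in strain 31 through a median of -0.28 to 0.18 in strain 28 and was below 0 in 28 of 31 strains. Strain 31 lay 0.19 below the next strain, while strains 23 and 28, the highest, have arrays that stood apart. The spread of Igf1 was slightly below the median of all probes, its SD of 0.22 standing at percentile 40.4. By limma's treat test, its mean was not shown to lie beyond 0.2 (adjusted p = 0.067), and neither were those of Igfbp3 (0.30) and Ghr (1).

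Ghr, the receptor, averaged 0.14 ± 0.06 (adjusted p = 0.028, limma), and strains lay on both sides of 0, 20 above and 11 below. Values ran from -0.48 in strain 38 through a median of 0.15 to 0.76 in strain 19. Strain 34 (-0.45) and strain 40 (-0.33) were next to the lowest, and strains 23 (0.64) and 24 (0.58) next to the highest. The SD of 0.33 stood at percentile 77.2. The mean was 0.71 after place correction, with 30 of 31 strains above 0 and strain 40 the lowest, and without strain 19 the adjusted p was 0.053. The order of strains was thus open to the place of the probe, and so was the size of the mean.

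Stat5a, which carries the signal to the nucleus, averaged -0.42 ± 0.05 and was below 0 in 29 of 31 strains (adjusted p = 7.0e-10, limma), 1.33-fold below the C57BL/6J pool. Its lowest value was -1.19 in strain 9, followed by -0.93 in strain 42, with a median of -0.43. Strains 14 (0.11) and 23 (0.13) were the strains above 0, and a gap of 0.27 separated them from the remaining 29. The neighbouring Stat5b was not measured, and probe sequences were not used here, so whether the probe also takes up Stat5b RNA is unknown.

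Socs2, the feedback inhibitor, was below 0 in 31 of 31 strains, which 8.09% of all probes shared on 1 side or the other. Its mean was -0.57 ± 0.05 (adjusted p = 2.7e-12, limma). Values ran from -0.999 in strain 32 through a median of -0.58 to -0.01 in strain 38. The mean lay close to the typical -0.58 of probes at its place, and after place correction it was 0.01 with 16 strains above and 15 below 0 (adjusted p = 0.91), where 73.9% of all probes passed. No difference from the C57BL/6J pool is therefore reported for Socs2. Strain 38 was the highest with the correction and without it.

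Igfals and Igfbp3 make up the large circulating complex with Igf1. Igfals averaged 0.39 ± 0.06 (adjusted p = 8.4e-07, limma), 1.31-fold above the C57BL/6J pool, with 27 of 31 strains above 0. It ran from -0.33 in strain 19 through 0.37 to 1.22 in strain 5, and the highest strain stood 0.32 above the next, strain 34. Igfbp3 averaged 0.24 ± 0.03 (adjusted p = 9.3e-08), with 29 of 31 strains above 0. It ran from -0.07 in strain 5 through 0.23 to 0.68 in strain 12, and its mean was 0.14 after place correction, with 24 strains above 0. Strain 5 was thus the highest of 31 for Igfals and the lowest for Igfbp3. The SD of Igfbp3, 0.18, was the lowest of the 9 members (percentile 17.8), and that of Igfals was 0.36 (percentile 82.2).

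Igfbp1, the binding protein controlled by insulin, had the widest spread of the 9, an SD of 0.49 at percentile 92.3 of all probes. It averaged 0.42 ± 0.09 (adjusted p = 2.7e-05, limma) with 26 of 31 strains above 0. Values ran from -0.43 in strain 15 through a median of 0.27 to 1.39 in strain 38, a 3.52-fold range. Strains 8 (1.29), 20 (1.23), 38 (1.39) and 42 (1.24) were the highest, separated by 0.28 from the next strain. Strains 23, 28 and 40, whose arrays stood apart as that of strain 42 did, came directly below them at 0.87 to 0.96 together with strain 22 (0.89). Without the 4 arrays the mean was 0.34 and the SD 0.46.

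Igfbp2, a binding protein of fetal and adult liver, averaged 0.51 ± 0.07 (adjusted p = 3.3e-08, limma) with 29 of 31 strains above 0. Strains 39 (1.55), 1 (1.33) and 20 (1.18) were the highest, 0.36 clear of the remaining 28, and strains 23 and 40, both with arrays that stood apart, were the lowest at -0.26. Igfbp4, which restrains Igf1 until the protease Pappa cleaves it, averaged 0.65 ± 0.07 (adjusted p = 2.4e-11), 1.57-fold above the C57BL/6J pool and above 0 in 30 of 31 strains. It ran from -0.38 in strain 40 through 0.65 to 1.41 in strain 27. The lowest value again came from an array that stood apart, and it lay 0.45 below the next, strain 23. In all, 7 of the 9 members had an SD above the median of all probes, 0.24, Igf1 and Igfbp3 being the exceptions.

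**Figure D2:**
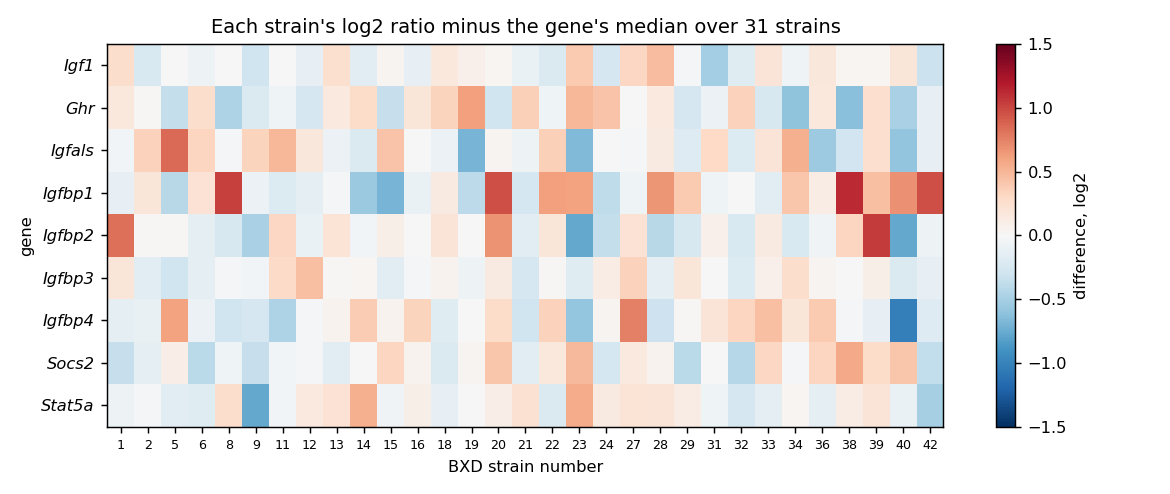
Difference of each strain's log2 ratio from the median of the gene over 31 strains (colour, log2), with genes in rows and BXD strain numbers in columns. Strain 38 has the highest values of Igfbp1 and Socs2 and the lowest of Ghr (strain 40 after place correction), and strain 40 the lowest of Igfbp4.

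Correlations between members asked whether the axis varied as a unit over the 31 strains. Of 36 pairs, 7 reached an unadjusted permutation p under 0.05, which is 19.4%, near the 17.9% of all probes that were associated with a member at an unadjusted p under 0.05 in limma. No pair passed after Benjamini-Hochberg adjustment over all probes in limma, the lowest adjusted p being 0.18. The adjusted p of a pair is, here and below, the larger of the values from regressing each gene on the other. Pearson r ran from -0.37 to 0.40, with a median size of 0.18.

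Along the signalling chain, Igf1 correlated with Stat5a (r = 0.40, permutation p = 0.027; Spearman rho 0.30, p = 0.11; adjusted p 0.52) and with Socs2 (r = 0.40, p = 0.026; rho 0.46, p = 0.011; adjusted p 0.51). Socs2 and Stat5a had r = 0.36 (p = 0.048; rho 0.22, p = 0.24; adjusted p 0.52). Strain 23 was high for all of these genes, and without it r was 0.31 (p = 0.097), 0.33 (p = 0.074) and 0.27 (p = 0.15) for the pairs in this order. Without strains 23, 28, 40 and 42 the values were 0.21 for Igf1 and Stat5a, 0.25 for Igf1 and Socs2 and 0.22 for Socs2 and Stat5a, and none reached p under 0.05. With the place correction they were 0.40 (p = 0.026), 0.18 (p = 0.33) and 0.35 (p = 0.0501), so that both pairs with Socs2, an every 8th probe, passed the threshold no longer. Without the 2 strains farthest from the median of the first gene the r of these pairs was 0.40, 0.48 and 0.25. Igf1 and Socs2 lie 7.45 Mb apart on chromosome 10.

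The receptor had negative r with 2 of the secreted partners. Ghr and Igfals had r = -0.37 (permutation p = 0.041; rho -0.35, p = 0.053; adjusted p 0.29), and -0.46 without the 4 arrays (p = 0.016). Strains 19 and 23 had the highest Ghr with Igfals below 0, and strains 34 and 5 had Ghr below 0 with the highest Igfals. Leaving out strain 19 gave r = -0.28 (p = 0.14), leaving out both strains farthest from the median of Ghr gave -0.37, and the place correction gave -0.15.

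Ghr and Igfbp1 had r = -0.37 (permutation p = 0.040; rho -0.31, p = 0.093; adjusted p 0.27), and -0.45 without the 4 arrays (p = 0.019). Strain 38 had the lowest Ghr as measured without place correction and the highest Igfbp1. Without strain 38 the r was -0.28 (p = 0.13), and without strains 19 and 38, the farthest from the median of Ghr, it was -0.23 (p = 0.24), so the call was lost without those strains while r stayed negative. With the place correction on all 31 arrays it was -0.57 (permutation p = 9.0e-04, rho -0.47 with permutation p = 0.0091, limma adjusted p 0.0084 over all probes). With p adjusted over all probes, the pair passed with the place correction only. Its limma adjusted p was 0.15 on the 27 arrays and 0.74 with the first principal component as covariate. With that component removed its r was -0.26 (permutation p = 0.16). No other pair passed in any of these settings. The call with the place correction is to be read against the shares of all probes that then passed, 21.9% for Ghr and 15.2% for Igfbp1. The correction took the mean of Ghr from 0.14 to 0.71 but moved Ghr less on the 4 arrays that stood apart. In strains 23 and 28 it went from 0.64 to 0.70 and from 0.30 to 0.54. In strains 40 and 42 it went from -0.33 to -0.34 and from 0.02 to 0.22. These 4 strains ranked 24 to 29 of 31 for Igfbp1. The part of this in the place-corrected r was not tested, and that r without the 4 arrays was not computed.

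Among the binding proteins, Igfbp2 correlated with Igfbp3 (r = 0.39, permutation p = 0.031; rho 0.42, p = 0.019; adjusted p 0.40) and with Igfbp4 (r = 0.36, p = 0.050; rho 0.33, p = 0.067; adjusted p 0.22). Without strain 40 alone these were 0.33 (p = 0.072) and 0.21 (p = 0.26), and without the 4 arrays 0.24 and -0.01. Without the 2 strains farthest from the median of Igfbp2 they were 0.36 and 0.55. With the place correction they were 0.34 (p = 0.064) and 0.33 (p = 0.070). With the first principal component removed they were 0.26 (p = 0.15) and 0.16 (p = 0.40). Igfbp1 and Igfbp3, whose gene bodies lie only 0.004 Mb apart on chromosome 11, had r = -0.04 (p = 0.85). The large-complex partners Igf1 and Igfals had r = -0.34 (p = 0.064), and Igf1 and Igfbp3 had 0.06 (p = 0.77). On the 27 arrays, Igf1 and Igfbp2 had r = 0.45 (p = 0.019), Igfbp2 and Socs2 0.44 (p = 0.020) and Ghr and Socs2 -0.40 (p = 0.038), none of which reached p under 0.05 on all 31. With the place correction on all 31 arrays, Igfbp2 and Socs2 had 0.47 (p = 0.0075), Igfbp4 and Socs2 0.42 (p = 0.017), Igf1 and Igfbp2 0.03 (p = 0.88) and Ghr and Socs2, both every 8th probes, -0.0022 (p = 0.99).

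**Figure D3:**
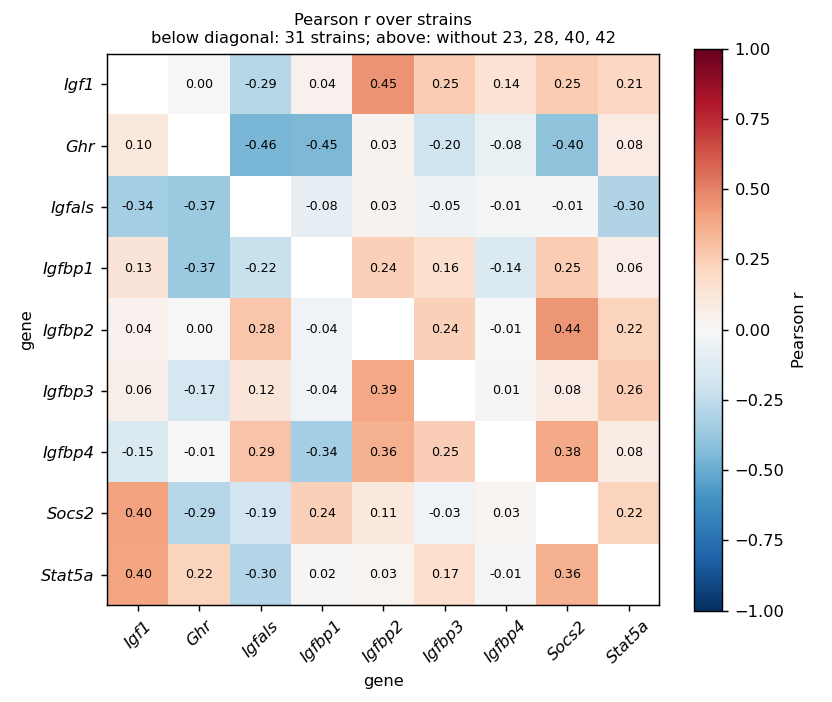
Pearson r between members over 31 strains (below the diagonal) and over 27 strains without 23, 28, 40 and 42 (above it), coloured from -1 to 1. Few cells exceed 0.4 in size, and several pairs differ between the triangles, Igf1 with Igfbp2 having 0.04 below and 0.45 above.

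Fitted against all other probes, the members fell into 3 kinds. Igf1, Igfals, Igfbp3 and Stat5a had no probe associated at an adjusted p under 0.05 in limma, with 1968 (9.04%), 3300 (15.2%), 2565 (11.8%) and 2009 (9.23%) at an unadjusted p under 0.05. Ghr had 9 (0.0414% of probes), 1056 without the 4 arrays and 4767 after place correction. Igfbp1 had 3021 (13.9%), Igfbp4 2194 (10.1%), Socs2 553 (2.54%) and Igfbp2 469 (2.15%). At an unadjusted p under 0.05 the shares were 15.6% for Ghr, 31.4% for Igfbp1, 27.2% for Igfbp4, 21.8% for Socs2 and 20.2% for Igfbp2. The first principal component of all probes held 29.2% of the variance, and r with it was 0.64 for Igfbp1, -0.56 for Igfbp4, -0.43 for Igfbp2 and 0.41 for Socs2. Without the 4 arrays no probe was called for Igfbp4 or Igfbp2 (1431 and 1600 at an unadjusted p under 0.05), and 860 were called for Igfbp1 and 2175 for Socs2.

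Igfbp1 stood out by how closely other probes tracked it. It had 94 probes with r of 0.8 or more over 31 strains, and no other member had any, Igfbp4 coming closest with a highest r of 0.7997. On the 27 arrays it had 88, of which 69 were the same probes, and Socs2 then had 13. The closest named genes were Nts, which encodes the peptide neurotensin (r = 0.92), the sperm protein gene Spaca6 (0.91) and the lactate transporter Slc16a3 (0.90), and on the 27 arrays they had 0.90, 0.90 and 0.88. The lowest r was that of a probe of the myelin gene Mbp (-0.78). Other probes of Mbp had r of 0.89 and -0.29, and the probes of Actb had 0.90 and -0.45 (both looked up after the values were seen), so what these probes share is not settled by their gene names.

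For the other members the closest probes were less alike. Those of Igf1 were the ephrin ligand Efna5 (r = 0.69), the erythropoietin receptor Epor (0.64) and Lst1 (0.63), with the T-box factor Tbx20 the lowest (-0.66), all with adjusted p of 0.31 or more. Those of Ghr were the clathrin adaptor subunit Ap2b1 (0.77), Phf20 (0.71) and the aldehyde dehydrogenase Aldh7a1 (0.70), with Sprr2j-ps the lowest (-0.72). Those of Socs2 were the keratin-associated Krtap7-1 (0.79), the hepatocyte forkhead factor Foxa2 (0.75) and the myosin Myo7a (0.75), with the chemokine Ccl21a the lowest (-0.75). After place correction the r with Socs2 was 0.63 for Krtap7-1, 0.37 for Foxa2, 0.59 for Myo7a and -0.37 for Ccl21a.

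For the remaining 5 members, the 3 closest genes with a usable name had r of 0.64 to 0.78. A probe outside the naming rule had r = 0.7997 with Igfbp4. Igfals had Smoc1 (0.68), Mrpl39 (0.66) and Psg23 (0.66), and Them4 at the low end (-0.64). Igfbp2 had the Ras regulator Nf1 (0.78), the annexin Anxa6 (0.76) and Cit (0.74), and the TGF-beta pseudoreceptor Bambi at the low end (-0.71). Igfbp3 had the autophagy receptor Nbr1 (0.67), Kat14 (0.66) and the adenylate cyclase Adcy3 (0.64), and Snora69 at the low end (-0.60). Igfbp4 had the amino acid transporter Slc1a4 (0.76), Pbrm1 (0.75) and Mrgprh (0.75), and Rassf2 at the low end (-0.75). Stat5a had Enpp5 (0.69), the glutaredoxin Glrx (0.68) and Zfp715 (0.66), and the transcription factor Atf7 at the low end (-0.70).

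Other genes of growth hormone and Igf signalling passed in shares near those of all probes. Of 66 probes of 52 genes, 26 were higher (39.4%, against 37.4% of all probes) and 23 lower (34.8%, against 37.6%) and 17 did not pass, with a median mean of 0.01 against 0.00 for all probes. Socs3, another feedback inhibitor, was the lowest at -1.48 ± 0.09 on an every 8th probe (-0.90 after place correction). Hnf4a, a liver transcription factor, had -0.79 on 1 probe and 0.20 on the other, Socs7 had -0.69, and Socs6 had 0.67 on 1 probe and -0.31 on the other. Of the 18 genes with several probes in the pathway and marker lists, 9 had probe means of both signs. Since no probe of the whole array was associated with Igf1 at an adjusted p under 0.05 in limma, none of these lists had one.

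Liver targets by which sex-dependent growth hormone secretion is usually read were also measured. Of 28 probes of 27 genes known to be higher in male mouse liver, 13 were higher than the C57BL/6J pool (46.4%, against 37.4% of all probes) and 7 lower (25%, against 37.6%), with a median mean of 0.17 against 0.00 for all probes. After place correction 15 of the 28 were higher and 7 lower. The largest means were those of Nat8f5 (-1.15, every 8th place), the selenium-binding Selenbp2 (0.91), Nudt7 (-0.72, every 8th place) and the cytochrome Cyp2u1 (0.61). These means are without place correction, and every 8th probes centred on -0.58, so those of Nat8f5 and Nudt7 are not read as strain differences. Of 29 probes of 26 genes known to be higher in female liver, 8 were higher (27.6%) and 10 lower (34.5%), with a median mean of -0.01. They were led by the cytochromes Cyp3a44 (0.45) and Cyp2a4 (-0.45), Ntrk2 (-0.40 on 1 of its probes) and Tox (0.38).

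Strain 38, which had the highest Igfbp1 and Socs2 and the lowest Ghr (strain 40 after place correction), also stood at the ends of these target genes (looked up after the values were seen). It was the lowest of 31 strains at 8 of the 28 male-higher probes, 28.6%, against 3.13% of all probes. The urinary pheromone carriers Mup2 (-2.94), Mup3 (-1.76) and Mup5 (-0.92), the fatty acid hydroxylase Cyp4a12a (-2.36), the glutathione transferase Gstp1 (-2.30) and the glucuronosyltransferase Ugt2b1 (-1.83) were among them, with Serpina12 (-0.67) and Alas2 (-0.24). In the other 30 strains the lowest values were -1.43 for Mup2, -1.33 for Cyp4a12a and -0.79 for Gstp1. Mup2 and Cyp4a12a are every 8th probes, and both were lowest in strain 38 after place correction too.

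Strain 38 was the highest of 31 at 7 of the 29 female-higher probes, 24.1%, against 2.82% of all probes. They were Cyp2b9 (1.39), Cyp2a5 (1.18), the peroxisomal transporter Abcd2 (1.12), Cyp2b13 (1.11), Cyp2a4 (1.01), the estrogen sulfotransferase Sult1e1 (0.95) and Papss2 (0.69). For Sult1e1 the other 30 strains ended at 0.42, and for Abcd2 at 0.61. Exceptions were Cyp2c40, a female-higher gene with its lowest value in strain 38 (-1.55), and Spink1, a male-higher gene with its highest (0.34). A second probe of Mup3 gave -1.03, second from the lowest, and a second probe of Cyp2b13 gave 0.13, rank 24 of 31. Among the 26 strains whose arrays did not stand apart, none was lowest at more than 2 male-higher probes or highest at more than 3 female-higher ones. Strain 28, whose array stood apart, was lowest at 5 male-higher probes (17.9%) and highest at 2 female-higher ones. The array of strain 38 itself had a median r of 0.57 with the others, below those of the 26.

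These values rest on 1 array of 1 pool, so they have no replicate check, and Mup and Cyp2b genes are near-identical copies whose probes may share signal. The strain 38 mice were labelled male. Of 9 Y-linked genes, Uty, on an every 8th probe, was lowest in strain 38 (-2.88), where the other 30 strains ran from -0.43 to 2.04. The other 8 genes ranked from 9 to 27 of 31 in strain 38, and Xist stood at -0.80, rank 7 from the lowest. Intensities were not used, so whether the probes of these genes had signal in liver is unknown. Summed over marker lists, strain 38 had the lowest endothelial (-0.45) and exocrine pancreas (-0.61) scores, high cholangiocyte (0.26, rank 30) and stellate (0.22, rank 30) scores and a hepatocyte score of 0.06 (rank 18), where a score is the mean over probes of the difference from each probe's median. Low endothelial scores were shared by strains 40 (-0.44, rank 2), 42 (-0.38, rank 3) and 23 (-0.38, rank 4), all on arrays set apart above. Strain 28, on another such array, had 0.002 (rank 14). The highest cholangiocyte score was that of strain 42 (0.28). For exocrine pancreas, strains 23, 28, 40 and 42 ranked 9 to 20, and for stellate cells 1 to 11. The part of the marker cells in the values of strain 38 was not tested. Among its signalling genes, 2 of 66 probes were lowest and 0 highest, and Igf1 (-0.25, rank 19 of 31) and Stat5a (-0.32, rank 21) were ordinary.

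**Figure D4:**
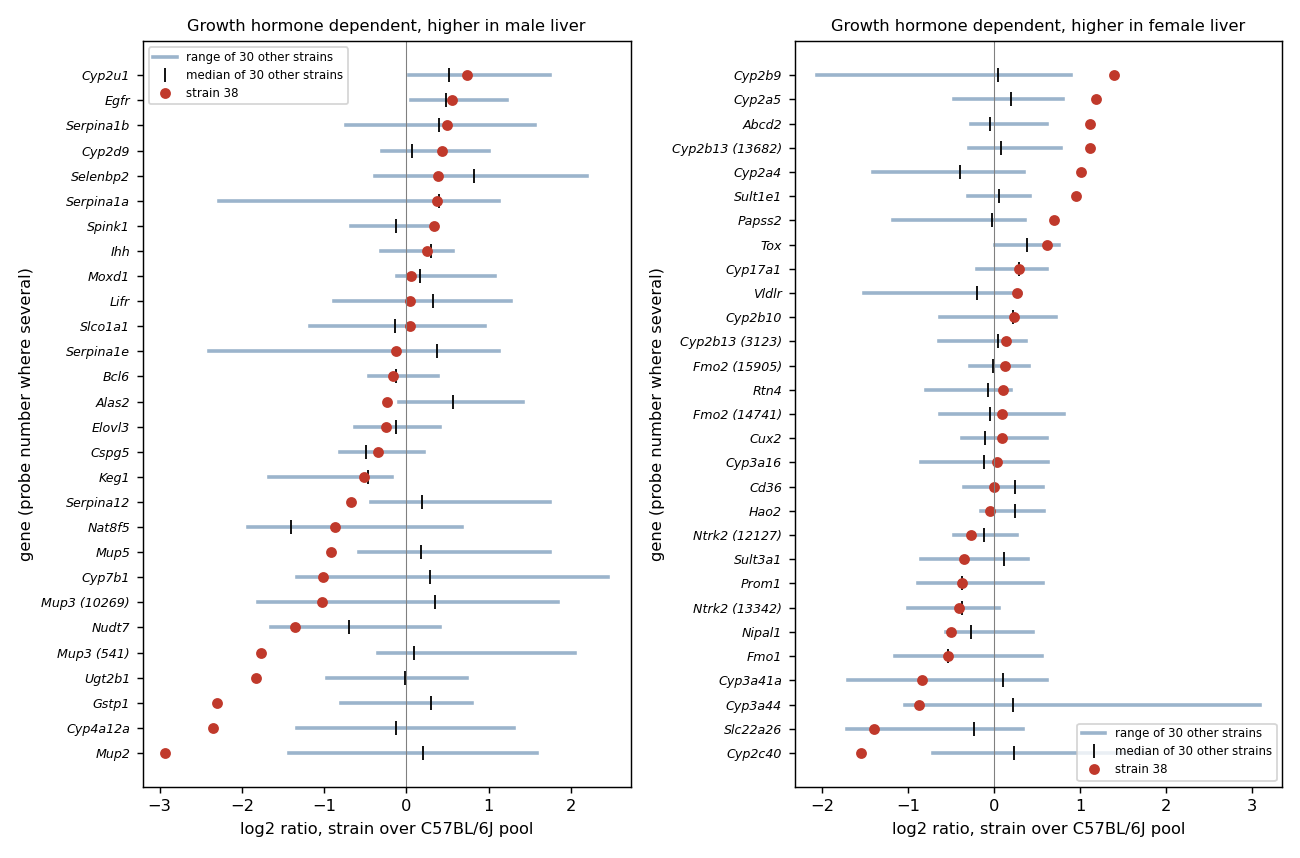
Log2 ratio of strain over C57BL/6J pool for every measured probe of growth hormone dependent genes higher in male (left) and female (right) mouse liver, ordered by the value in strain 38. Red points are strain 38, bars the range and ticks the median of the other 30 strains; strain 38 lies outside the bar at the low end for 8 male-higher probes and at the high end for 7 female-higher ones.

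Genes known to respond with Igfbp1 to fasting and Foxo1 were set beside it. Of 14 probes of 13 such genes, 6 were higher than the C57BL/6J pool (42.9%, against 37.4% of all probes) and 2 lower (14.3%, against 37.6%), with a median mean of 0.06, and 6 were higher and 4 lower after place correction. They were led by the gluconeogenic G6pc (-0.63), the gluconeogenic Pck1 (0.38), the insulin receptor substrate Irs2 (0.35) and the carnitine transferase Cpt1a (0.27). None was associated positively with Igfbp1 in limma, and 2 were negatively, G6pc (r = -0.68, adjusted p = 4.6e-04) and Txnip (r = -0.51, adjusted p = 0.024), 14.3% against 13.9% of all probes. In strains 8, 20, 38 and 42, the highest for Igfbp1, G6pc had -1.81, -1.37, -2.32 and -1.49. Pck1 had 0.29, 1.09, 0.51 and 0.35 in the same strains, and its r with Igfbp1 was 0.04. Of the signalling probes, 4 were positively and 3 negatively associated with Igfbp1, 10.6% against the same 13.9%. Among the positive were a probe of Foxa2 (r = 0.77) and a probe of the glucocorticoid receptor Nr3c1 (0.70), named after their values were seen. Foxa2 and Nr3c1 each have 2 probes, and the r of the other probe is not given here.

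Markers of other cells were set against Igfbp1 in the same fit, in which 13.9% of all probes were called. The smooth muscle and stellate marker Acta2 (r = 0.72) and the collagen Col1a2 (0.58), 2 of 11 stellate and fibroblast probes, and the bile duct keratins Krt7 (0.56) and Krt19 (0.51), 2 of 5 cholangiocyte probes, were positive, and 1 of 8 macrophage probes (Adgre1, -0.64), 2 of 8 endothelial probes (Pecam1, -0.49, and Eng, -0.48) and 1 of 7 exocrine pancreas probes (Cpa1, -0.56) negative. Of 4 adipocyte probes, Adipoq was positive (0.55) and Car3 negative (-0.45). Of the 11 hepatocyte probes none passed. Without the 4 arrays, when 3.95% of all probes were called, no cholangiocyte, macrophage, endothelial or adipocyte probe passed, and 2 stellate probes and 1 pancreas probe did. The part of these cells in the values of Igfbp1 was not tested.

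**Figure D5:**
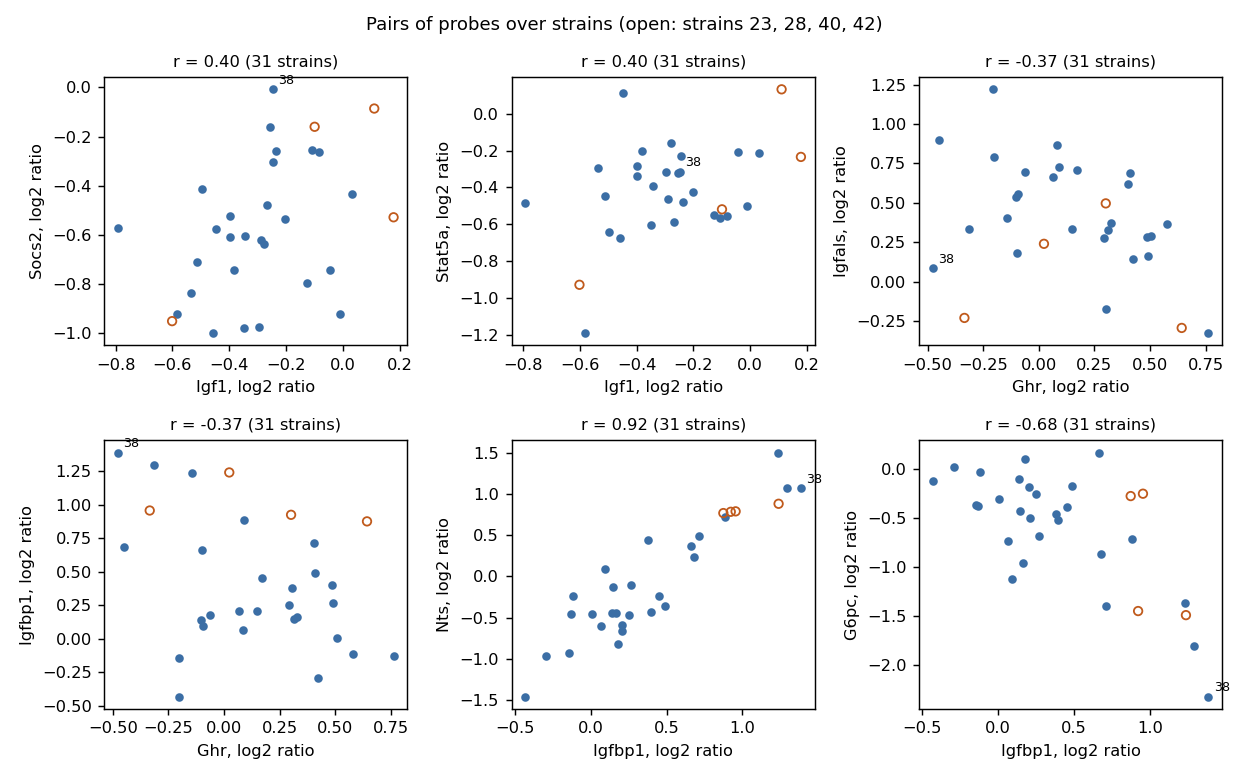
Log2 ratios (both axes) of 6 pairs of probes, 1 point per strain, with strains 23, 28, 40 and 42 open and strain 38 labelled. The pairs within the axis scatter widely, while Nts follows Igfbp1 (r = 0.92) and G6pc is lowest where Igfbp1 is highest (r = -0.68).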

How the data were processed

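The authors deposited normalized log2 ratios (the log base and direction are a likely reading, strain RNA being in the red channel), 1 array per strain. Per the submitters' processing notes, R 2.0.0 and limma were used. No source used here states the background correction or the normalization. The arrays had been given a common distribution before deposit, since sorted values of different arrays matched to within 0.000256 (median -0.001, SD 0.51). Intensities were not used, so signal over background is unknown, and precision is limited by having 31 arrays.

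Of 23040 features, 1275 were empty on all arrays and 21765 were tested. The annotation gave 1 gene for 16642, several for 134 and none for 4989, and 15964 names were updated from a RefSeq table (GRCm38.p6). Panel means were tested against 0, and every probe was regressed on each member, with limma 3.58.1 in R 4.3.3 (lmFit, eBayes, two-sided, Benjamini-Hochberg over all probes, threshold 0.05). The panel mean leaves out the reference's own spread. Member pairs had Pearson and Spearman correlations with two-sided permutation tests of 100000 resamples (numpy 2.4.6, with ranks from scipy 1.17.1). P-values over strains cover the spread between single arrays, which may be technical. The fits were tested on simulated data.

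Named genes were all members, for each member the 3 genes most like it by r and the gene of lowest r, and up to 4 genes of a list by absolute mean among those that passed. Other names are said to have been chosen later. Members, lists and the alternatives were chosen with earlier results of these data known. Alternatives were array subsets, place correction, robust and treat tests, centring, scaling, ranks, removal of the first principal component and leaving out each strain.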

Additional observations from a re-analysis of the deposited data

How the results depend on the processing

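The 16325 probes whose panel mean passed numbered 7229 when a mean beyond 0.2 was asked for with treat, and 16084 to 17033 under the other settings, with 16172 to 16500 when each strain was left out. The mean of Socs2 was 0.0063 after place correction. Member pairs at an unadjusted permutation p under 0.05 numbered 7 as measured, 2 with Spearman's rho and 4 without the 2 farthest strains. They numbered 5 without strains 23, 28, 40 and 42, 4 after place correction and 3 with the first principal component removed. When each strain was left out they numbered 2 to 8. The pairs without the 4 arrays and after place correction were in part other pairs than the 7. The r of Igfbp2 and Igfbp4 was -0.0066 without strains 23, 28, 40 and 42, that of Igf1 and Igfbp2 ran from -0.054 (without strain 1) to 0.18 and that of Igfbp4 and Socs2 from -0.017 (without strain 33) to 0.21 when each strain was left out. Associated probes without strains 23, 28, 40 and 42 were 1056 for Ghr, 860 for Igfbp1, 0 for Igfbp2, 0 for Igfbp4, 2175 for Socs2 and 9 for Stat5a (adjusted p under 0.05, limma). After place correction they were 4767 for Ghr, 115 for Igfbp2 and 253 for Socs2, and with the first principal component as covariate 260 for Igfbp1, 2 for Igfbp2, 4 for Igfbp4, 155 for Socs2 and 26 for Stat5a. The causes were not tested. Alternatives were also counted for 20 single results, the 9 panel means and a part of the 36 pairs. Those pairs had p under 0.05 in at least 1 setting other than leaving out each strain. Of these alternatives, 116 kept direction and call, 32 lost the call, 6 gained it and 4 turned the sign. A result that failed in both settings counted as kept. The 7 members with an SD above the median were 6 to 8 under the alternatives. No paired analysis was possible because the strains form 1 group with 1 array each. With no intensities, no limit from signal over background could be set.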
